A study of Mus musculus with 4 samples.

Results

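Inhibitory and costimulatory receptors sit on the T cell surface and set how strongly a T cell answers its antigen. The 8 genes described here were Ctla4, Pdcd1, Btla, Lag3, Havcr2 and Cd160, which code for inhibitory receptors, and Cd28 and Icos, which code for costimulatory ones. They were found by name, as every non-control probe whose gene name, or the current symbol of whose transcript accession, was 1 of the 8. This gave 11 of the 41174 probes, for 8 of 27597 genes. Ctla4, Pdcd1, Lag3, Btla and Cd160 had 1 probe each, and Havcr2, Cd28 and Icos had 2 each.

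The samples were 4 preparations of CD4+ T cells from spleen and lymph nodes of BALB/c mice, with RNA from each labelled with Cy3 and read on 1 Agilent mouse expression array. Naive T cells were CD4+CD25-CD62Lhi and natural regulatory T cells, or Treg, were CD4+CD25+; both were freshly isolated and not transduced. The remaining samples were CD25-enriched Treg that had received a lentivirus coding for GFP and a hairpin RNA, had been cultured for 60 h with human IL-2 and had been sorted for GFP. In the sample labelled si-Eos the hairpin was directed at Eos, the Ikaros-family zinc finger protein encoded by Ikzf4, and in that labelled si-RL at Renilla luciferase, as the control. Both transduced samples therefore shared the virus, the culture, the IL-2 and the GFP sort, which the fresh Treg lacked, and a comparison of either with fresh Treg cannot be told apart from culture and transduction. How many mice or cultures went into a sample was not given in the sources used here.

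CD28 and CTLA-4 bind the same ligands, CD80 and CD86, on antigen-presenting cells. CD28 passes on an activating signal, while CTLA-4 binds the ligands more tightly and removes them from the presenting cell, and Treg use it to restrain other T cells. ICOS is a CD28 relative that is induced on activated T cells, and PD-1, LAG-3, TIM-3 (the product of Havcr2), BTLA and CD160 are brakes that bind PD-L1 and PD-L2, MHC class II, galectin-9 and the herpesvirus entry mediator, respectively, the last of these being shared by BTLA and CD160.

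RefSeq promoter sequences were matched for 5 of the 8 genes (Ctla4, Pdcd1, Havcr2, Btla and Cd160); Lag3, Cd28 and Icos were not in the table used. The 250 bases before the transcription start of 4 of them are printed because these genes cover the patterns below: Ctla4, Pdcd1 and Havcr2 were higher in Treg than in the naive cells, and Btla was not. Sequences are RefSeq's, from mouse build GRCm38.p6, written 5′ to 3′ on the strand of the gene and ending at the base before the start. Capitals mark the short core of NFAT sites, GGAAA, and that of Ikaros-family sites, GGGAA, on either strand (TTTCC and TTCCC on the other).
Ctla4, chr1:60908775-60909024, plus strand: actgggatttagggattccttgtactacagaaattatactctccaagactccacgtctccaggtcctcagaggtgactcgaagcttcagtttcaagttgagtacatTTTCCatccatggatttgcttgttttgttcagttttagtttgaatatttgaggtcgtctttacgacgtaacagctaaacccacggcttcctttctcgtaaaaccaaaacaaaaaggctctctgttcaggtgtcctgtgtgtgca
Pdcd1, chr1:94052554-94052803, minus strand: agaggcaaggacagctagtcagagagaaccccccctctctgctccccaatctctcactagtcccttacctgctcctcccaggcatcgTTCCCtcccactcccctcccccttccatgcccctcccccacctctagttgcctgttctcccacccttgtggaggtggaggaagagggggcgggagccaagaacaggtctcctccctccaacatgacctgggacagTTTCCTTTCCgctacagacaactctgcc
Havcr2, chr11:46454681-46454930, plus strand: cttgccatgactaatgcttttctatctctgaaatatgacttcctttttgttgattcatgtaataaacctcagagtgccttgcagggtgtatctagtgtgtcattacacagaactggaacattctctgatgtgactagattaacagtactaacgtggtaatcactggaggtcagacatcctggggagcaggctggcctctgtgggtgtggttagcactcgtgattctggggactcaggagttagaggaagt
Btla, chr16:45224087-45224336, plus strand: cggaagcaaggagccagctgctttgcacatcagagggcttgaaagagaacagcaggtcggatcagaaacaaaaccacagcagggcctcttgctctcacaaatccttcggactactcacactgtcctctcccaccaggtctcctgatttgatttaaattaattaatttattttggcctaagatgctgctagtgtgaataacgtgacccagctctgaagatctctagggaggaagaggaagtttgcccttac
In these windows the NFAT core was found 1 time in Ctla4, beginning 144 bases before the start, and 2 times side by side in Pdcd1, beginning 28 and 23 bases before the start. Pdcd1 also held 1 Ikaros-family core, 163 bases before the start. Havcr2 and Btla held neither, and the forkhead motif TGTTTAC was in none of the windows of the 5 genes. Cores this short are common: of 32851 RefSeq windows of the same length, 55.6% held the NFAT core, 56.2% the Ikaros-family core and 3.17% the forkhead motif. The matches describe letters in these windows, and no binding was measured.

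Levels below are multiples of the 75th percentile of signal over all probes of the same array, so that a level of 1 is that percentile. They can be compared between arrays for 1 probe, and not between probes. With 1 array in each group there was no replicate spread and no test was run; the ± given with each log2 value combines the errors that the scanner software reported for both spots. It covers technical error only and was about 0.20 for a bright probe. Genes were called apart at a difference of at least 2-fold. Where a probe was not well above background on 1 array, the difference is given as "at least": the bright level over the dim probe's own level or the lowest level well above background on that array, whichever was higher. These bounds hold for this processing only, and normexp background correction gave smaller values for Lag3 and Havcr2, some of which are given at the end. In sorted populations like these, fewer cells with a transcript and less transcript in each cell cannot be told apart.

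On the arrays, 64.0% to 68.3% of probes were well above background and no spot was saturated. Ikzf4, the targeted gene, went against the labels: its 3 probes were 0.93 ± 0.21, 1.19 ± 0.22 and 1.96 ± 0.21 higher on the log2 scale in the si-Eos-labelled library than in the si-RL-labelled library. Every direction drawn from these 2 libraries below rests on labels that Ikzf4 contradicts. Foxp3, which codes for the lineage factor of Treg, stood at 0.212 in naive T cells, 4.54 in fresh Treg, 8.26 in the si-Eos-labelled library and 0.420 in the si-RL-labelled library. All 7 T cell marker genes were above background on every array, with summed levels of 125 to 191. The 8 measured Treg markers summed to 27.6, 138, 312 and 118 in the same order of samples as Foxp3, and the 6 naive T cell markers to 186, 64.5, 50.9 and 145. Tnfrsf18 alone, which codes for GITR, made up most of the Treg sum, and the other 7 markers summed to 3.51, 56.0, 74.5 and 9.18. The library labelled si-RL thus went against its cell type label in several genes: Ikzf2 read 1.28, 29.4, 22.9 and 1.90, Itgae 0.236, 9.67, 10.9 and 0.101, and Lef1, a naive T cell marker, 69.6, 15.8, 11.1 and 81.3. Il2ra, for CD25, did not follow them, at 0.0777, 3.13, 21.8 and 4.31. The part of these differences between the samples in the receptor values was not tested.

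Of the inhibitory receptors, Ctla4 was high in fresh Treg and in the si-Eos-labelled library and lower in the other samples. Its probe (mm8 chr1:60859210-60859269, plus strand) read 1.47 in naive T cells, 18.4 in fresh Treg, 21.2 in the si-Eos-labelled library and 3.78 in the si-RL-labelled library. Treg thus lay 12.6-fold above naive T cells (3.65 ± 0.20 on the log2 scale). The library labelled si-Eos differed from fresh Treg by 0.20 ± 0.20, which was within the scanner error, and turned to -0.14 when arrays were scaled to spike-in probes. The library labelled si-RL was 4.88-fold below Treg (-2.29 ± 0.20), yet still 1.37 ± 0.20 above naive T cells on the log2 scale. Between the transduced libraries, the one labelled si-Eos was 5.61-fold higher (2.49 ± 0.20).

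Pdcd1, which codes for PD-1, separated the samples more widely than Ctla4. The probe (mm8 chr1:95868893-95868952, minus strand) read 0.581 in naive T cells, 5.05 in fresh Treg, 15.8 in the si-Eos-labelled library and 0.458 in the si-RL-labelled library. Treg were 8.70-fold above naive T cells (3.12 ± 0.20). In contrast to Ctla4, Pdcd1 in the si-RL-labelled library stood at the naive level, with a difference of -0.34 ± 0.21 between them. The library labelled si-Eos was 34.6-fold above it (5.11 ± 0.21), and 3.14-fold above fresh Treg (1.65 ± 0.20).

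Lag3, whose product binds MHC class II, was close to background in naive T cells and in the si-RL-labelled library. The file places its probe over a longer span than the others, from position 124870171 to 124870467 of chromosome 6 in mm8, minus strand. It read 0.0470 in naive T cells, 0.791 in fresh Treg and 6.26 in the si-Eos-labelled library, and 0.0170 in the si-RL-labelled library, where it was not well above background. Treg lay 16.8-fold above naive T cells (4.07 ± 0.28), and the library labelled si-Eos a further 7.92-fold above Treg (2.98 ± 0.20). The library labelled si-Eos was at least 181-fold above the library labelled si-RL, which in turn was at least 22.8-fold below fresh Treg.

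Havcr2, which codes for TIM-3, a receptor best known from interferon-producing T cells, was above background in Treg and in the si-Eos-labelled library. Its brighter probe (mm8 chr11:46324571-46324630, plus strand) read 0.130 in Treg and 3.42 in the si-Eos-labelled library. On the other arrays it was not well above background, at 0.0266 in naive T cells and 0.00873 in the si-RL-labelled library. Treg were therefore at least 4.44-fold above naive T cells, and the library labelled si-Eos was 26.2-fold above Treg (4.71 ± 0.22) and at least 98.9-fold above the library labelled si-RL. The dimmer probe lies upstream (mm8 chr11:46299842-46299901) and was well above background only on the array labelled si-Eos, at 0.108. By this probe the library labelled si-Eos was at least 3.12-fold above the library labelled si-RL; both probes give only bounds there. Of 9 measured myeloid and dendritic cell markers, 6 or 7 were above background on each array, with summed levels of 1.49 to 1.68, Siglech being below background on all 4. The part of such cells in the Havcr2 values was not tested.

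Btla ran the other way from these 4 genes. The probe (mm8 chr16:45171337-45171396, plus strand) read 1.15 in naive T cells, 0.837 in fresh Treg, 0.440 in the si-Eos-labelled library and 0.799 in the si-RL-labelled library. Naive T cells were highest and the library labelled si-Eos lowest, but no step in the 4 comparisons reached 2-fold: Treg differed from naive T cells by -0.46 ± 0.20, and the transduced libraries differed from each other by -0.86 ± 0.21. The si-RL-labelled library and fresh Treg were not separated, at -0.07 ± 0.20. The library labelled si-Eos lay 1.90-fold below Treg (-0.93 ± 0.21), and spike-in scaling took this past 2-fold, to -1.27. Against naive T cells the same library differed by -1.38, which is past 2-fold. B cells also carry BTLA. Of 8 B cell markers, 5 or 6 were above background on each array, with Blk below background on all 4. Their summed levels were 1.49, 3.12, 1.41 and 1.14 in naive T cells, Treg, si-Eos and si-RL. Without Cd79b, the other 7 summed to 1.04, 1.45, 1.16 and 0.939 in that order. The part of such cells in the Btla values was not tested.

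Cd160, which codes for a membrane-anchored receptor typical of NK cells and CD8 T cells, stayed near background everywhere. Its probe is placed over the longest span, between positions 96891235 and 96894220 of chromosome 3 in mm8, minus strand. It read 0.0442 in naive T cells, 0.0999 in fresh Treg and 0.111 in the si-Eos-labelled library, and was not well above background in the si-RL-labelled library, at 0.0276. Treg were 2.26-fold above naive T cells (1.18 ± 0.33), a step that fell to 0.97 with median scaling and 0.94 with quantile normalization and so below 2-fold. The library labelled si-Eos was at least 3.20-fold above the library labelled si-RL and 0.15 ± 0.24 from fresh Treg, a value that turned to -1.33 after normexp background correction. Markers of CD8 T and NK cells moved in part with this gene: 8, 9, 8 and 6 of the 9 measured were above background in naive T cells, Treg, si-Eos and si-RL. Their summed levels were 7.38, 4.04, 7.08 and 3.15 in that order. Ncr1 was above background in Treg only. Klrk1 and Gzma were not well above background on the si-RL-labelled array, whereas in the si-Eos-labelled library they read 0.849 and 1.63. From naive T cells to Treg, Klrd1, Prf1 and Cd8b1 went the other way: 1.72 to 0.238, 1.47 to 0.293 and 3.84 to 2.91. Klrd1 read 0.866 in the si-Eos-labelled library and 0.879 in the si-RL-labelled library. The part of such cells in the Cd160 values was not tested.

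Of the costimulatory receptors, Cd28 was the most even gene of the 8 by its brighter probe. This probe (mm8 chr1:60717381-60717440, plus strand) is printed at 10 spots on the array, of which 9 were kept on the array labelled si-Eos. It read 3.20 in naive T cells, 3.06 in fresh Treg, 3.73 in the si-Eos-labelled library and 2.27 in the si-RL-labelled library. The spots of an array scattered by an SD of 0.038 to 0.045 on the log2 scale, well under the software's error. Treg and naive T cells differed by -0.06 ± 0.20, and the widest of the 4 comparisons, between the transduced libraries, by 0.72 ± 0.20, which is under 2-fold.

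The other Cd28 probe disagreed with it. It was designed from a cDNA clone and lies upstream, at chr1:60708569-60708628 of mm8, plus strand. It read 0.352 in naive T cells and 0.361 in Treg, but 0.0736 in the si-RL-labelled library and 0.0305 in the si-Eos-labelled library, where it was not well above background. By this probe the library labelled si-RL was 4.90-fold below Treg (-2.29 ± 0.27) and the library labelled si-Eos at least 11.8-fold below Treg and at least 2.42-fold below the library labelled si-RL. The probes thus differed little between Treg and naive T cells (-0.06 and 0.04), and they part in the transduced samples. Which transcript forms each probe reads was not analysed here.

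Icos was lower in naive T cells than on the other 3 arrays. Its brighter probe (mm8 chr1:60944773-60944832, plus strand) read 2.18 in naive T cells, 10.7 in fresh Treg, 28.6 in the si-Eos-labelled library and 13.4 in the si-RL-labelled library. Treg were 4.91-fold above naive T cells (2.30 ± 0.20), and the library labelled si-Eos 2.67-fold above Treg (1.42 ± 0.20). Unlike Ctla4 and Pdcd1, Icos was not lower in the si-RL-labelled library than in fresh Treg: the difference was 0.33 ± 0.20 by this probe and -0.12 by the other. The second probe (mm8 chr1:60942805-60942864) read 0.369, 1.82, 4.73 and 1.67 in the same order of samples, and its difference between Treg and naive T cells was 2.30, equal to that of the first. Between the transduced libraries the first probe gave a 2.13-fold and the second a 2.83-fold difference. The first lies near the 2-fold threshold: its log2 value was 1.09 ± 0.20, and 0.91 with quantile normalization.

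**Figure D1:**
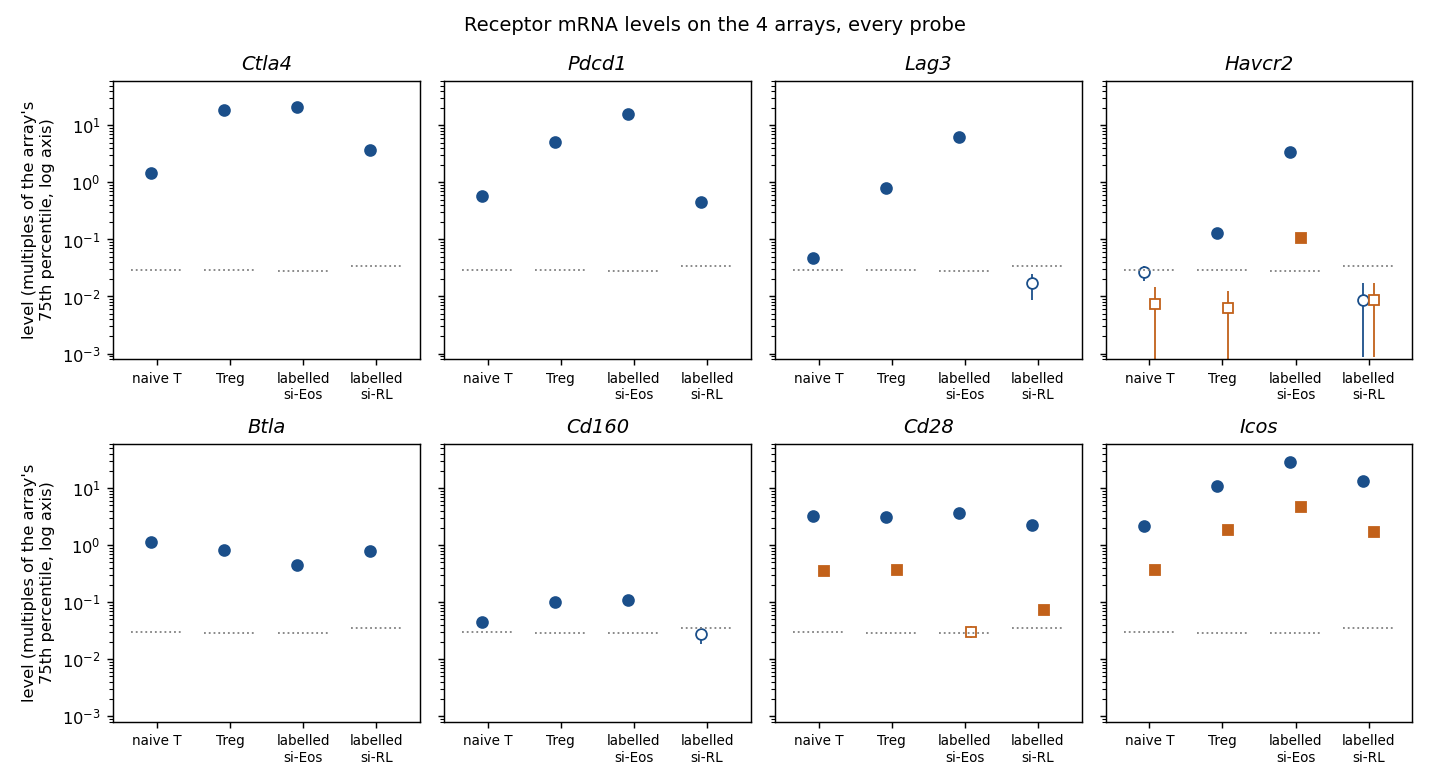
Level of each receptor probe on the 4 arrays, as multiples of the array's 75th percentile on a log axis; circles are the brightest probe and squares the second probe of Havcr2, Cd28 and Icos, open symbols were not well above background, bars are the scanner error and dotted lines the lowest level well above background. Ctla4, Pdcd1, Lag3, Havcr2 and Icos stand highest on the array labelled si-Eos, Btla stands lowest there, and the 2 Cd28 probes part on the transduced arrays.

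Set side by side, the comparison of fresh Treg with naive T cells asks which receptors differ between the 2 cell types without culture. Of the 8 receptors, 6 were at least 2-fold higher in Treg (Ctla4, Pdcd1, Lag3, Havcr2, Icos and Cd160) and 0 lower. Over the 19152 genes tested, 9.12% were apart by the same rule, 6.69% higher and 2.42% lower. The median log2 difference of the 8 receptors, a limit since 1 of its middle values is a bound, was at least 2.22, against -0.0026 over all genes tested. The all-gene split depended on the scaling: 73.4% of the genes apart were higher in Treg, 57.4% with median scaling, 87.1% with spike-in scaling and 89.0% with normexp, the median gene shifting by -0.23, 0.26 and 0.21 on the log2 scale.

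Between the transduced libraries, 6 of 8 receptors were higher in the one labelled si-Eos and 0 were lower: Pdcd1, Lag3, Havcr2, Ctla4, Icos and Cd160. The background was 22.6% apart, 12.3% higher and 10.3% lower, of 19234 genes. The receptors' median difference was at least 2.08, again with a bound in the middle, against 0.08 over all genes. Of these, Lag3 (at least 181-fold), Havcr2 (at least 98.9-fold), Pdcd1 (34.6-fold), Ctla4 (5.61-fold) and Cd160 (at least 3.20-fold) lay above the 95th percentile of all genes, which was 1.61 on the log2 scale. The same 6 genes were those above naive T cells in fresh Treg. These comparisons use different arrays. How many of all genes were higher in both was not counted, so the overlap is not read as a result about the receptors.

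Each transduced library was then set against fresh Treg, which both of these comparisons share. In the library labelled si-RL, 5 of 8 receptors were lower (Ctla4, Pdcd1, Lag3, Havcr2 and Cd160) and 0 were higher, against a background of 18.3% apart, 9.95% lower and 8.39% higher, of 18985 genes. Their median, a limit since both middle values are bounds, was -1.72 or lower, and that of all genes -0.04. In the library labelled si-Eos, 4 of 8 were higher (Havcr2, Lag3, Pdcd1 and Icos) and 0 were lower, against 20.5% apart, 9.74% higher and 10.7% lower, of 19804 genes, with a median of 0.85 against 0.07. Spike-in scaling made Btla a lower gene there, for 4 higher and 1 lower. It shifted the median gene by -0.41 in the first of these comparisons and by -0.28 in the second, and under it 16.6% and 25.4% of the genes apart were higher, instead of 45.7% and 47.6%. With normexp those shares were 13.6% and 17.8%, with shifts of -0.31 and -0.36.

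**Figure D2:**
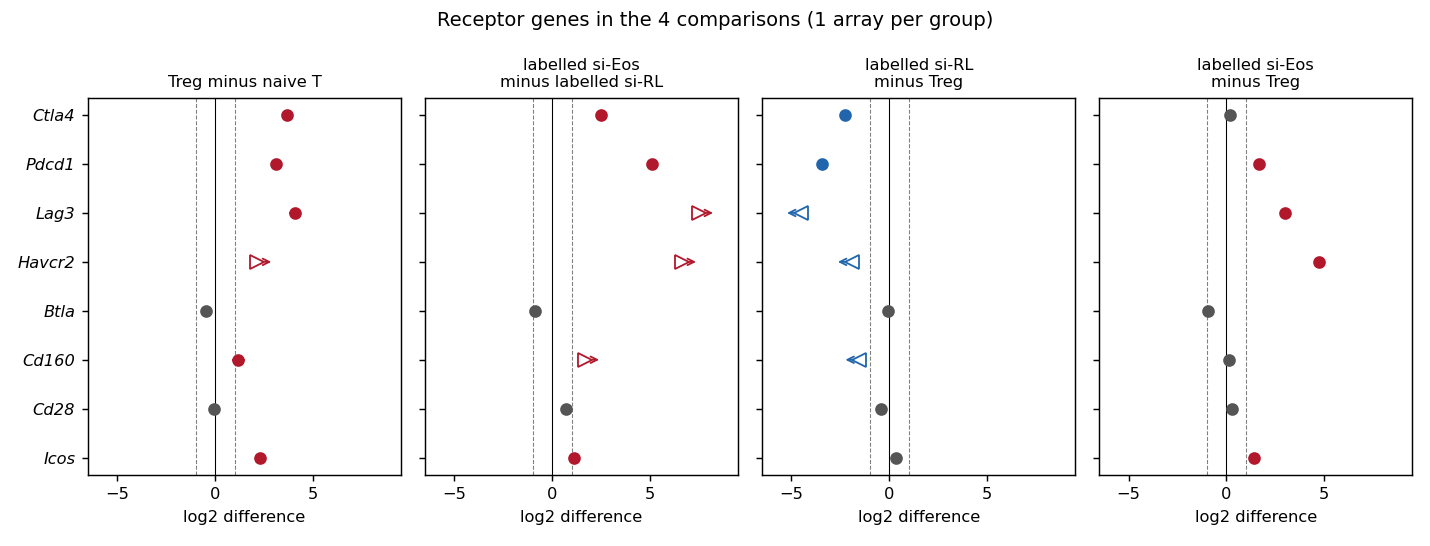
log2 difference of each receptor's brightest probe in the 4 comparisons, with the scanner error as bars; open triangles with arrows are bounds and dashed lines mark 2-fold. Ctla4, Pdcd1, Lag3 and Havcr2 are above the upper line for Treg against naive T cells and for the library labelled si-Eos against that labelled si-RL, and below the lower line for the si-RL-labelled library against Treg, while Cd28 and Btla stay between the lines in all 4.

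Ctla4 and Cd28 compete for the same ligands, and on 1 array their changes can be set against each other without any scaling. Ctla4 gained 3.72 ± 0.29 on Cd28 from naive T cells to Treg, a 13.1-fold change in their ratio by the brighter Cd28 probe. In the library labelled si-Eos the gain over naive T cells was 3.63 ± 0.29, and in the si-RL-labelled library 1.86 ± 0.29. By this probe the ratio differed between fresh Treg and the library labelled si-Eos by -0.09 ± 0.29 and was 3.62-fold lower in the si-RL-labelled library than in Treg. The other Cd28 probe gave a like gain of 3.61 from naive T cells to Treg and turned both of the latter over: the ratio was at least 13.6-fold above Treg for si-Eos, and 0.0083 from Treg on the log2 scale for si-RL. Of these values, that for naive T cells to fresh Treg was alike with either probe. Icos gained 2.36 on the brighter Cd28 probe from naive T cells to Treg and 2.26 on the other. In the si-Eos and si-RL libraries its gains over naive T cells were 3.49 and 3.11 by the brighter probe, and at least 7.24 and 4.88 by the other. Between these libraries the gain of Icos was 0.38 ± 0.29 by the brighter probe and at least 2.36 by the other. The values by the other probe were added after the data had been seen. Ctla4 set against Icos moved by 1.35 from naive T cells to Treg and by -2.61 from Treg to the library labelled si-RL. Pdcd1 set against Btla, an inhibitory pair, gained 3.58 from naive T cells to Treg, 6.15 to the library labelled si-Eos and only 0.18 to the library labelled si-RL.

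**Figure D3:**
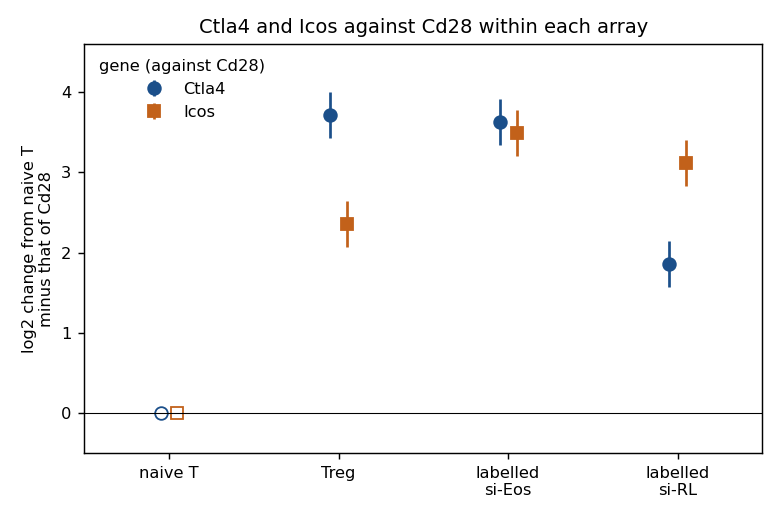
log2 change from naive T cells of Ctla4 and Icos, minus that of the brighter Cd28 probe on the same arrays, in Treg and in the transduced libraries, with naive T cells at 0 (open symbols); bars are the scanner errors combined. Ctla4 stands at 3.72, 3.63 and 1.86 and Icos at 2.36, 3.49 and 3.11 in Treg, si-Eos and si-RL.

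Over the 4 arrays, the genes whose profile lay closest to each receptor were found by the Euclidean distance between log2 levels centred on each gene's mean, among the 16450 genes above background on all 4 arrays. This covers the 5 receptors that were above background throughout. Closest to Ctla4 were Hmgn3 (distance 0.17) and Tiam1 (0.22), followed by a transcript with no current symbol (0.36). Closest to Pdcd1 were Phactr2 (0.30), Shtn1 (0.42) and Cysltr2 (0.61). Closest to Icos were Cenpk (0.060), Cdca5 (0.25) and Tpx2 (0.26). For the flatter profiles the nearest genes were Thoc1, Ppp1r13b and AI413194 for Btla (0.070 to 0.085) and Nol11, Cd300e and C2cd2l for Cd28 (0.021 to 0.050). Among the receptors, Ctla4 lay about equally far from Icos (1.85) and from Pdcd1 (1.90), and the widest gap was between Btla and Pdcd1 (5.11). With 4 points per profile, the distances are a description of these arrays only.

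The receptors act through ligands, adaptors and transcription factors, and 4 lists of such genes held 72 entries, of which 69 were on the array and 65 were tested in each comparison. Between Treg and naive T cells, 3 of 10 ligand genes were higher and 0 lower (the 6.69% and 2.42% above). Pdcd1lg2, which codes for the PD-1 ligand PD-L2, was at least 13.0-fold higher. Cd86 and Cd80, the ligands of CD28 and CTLA-4, were 3.46-fold and at least 2.05-fold higher in Treg. Icosl and Tnfrsf14, which codes for the herpesvirus entry mediator, differed by -0.11 ± 0.21 and -0.44 ± 0.20. Over all 65 genes, 13 were higher and 4 lower in Treg, and 9 and 6 with median scaling or normexp.

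Of 16 other receptors of the same kind, 3 were higher in Treg and 2 lower. The shares over all genes, for this list and those that follow in this paragraph, were 6.69% higher and 2.42% lower. Klrg1, a lectin-like inhibitory receptor of experienced T cells, was 25.2-fold higher, Cd200 5.52-fold and Slamf1 2.72-fold. Cd200 was on this list, although it codes for the ligand of the receptor encoded by Cd200r1. Lair1, an inhibitory receptor for collagen, was 4.01-fold lower and Crtam 3.57-fold lower. Of 23 signalling genes 0 were higher and 2 lower, among them the adaptor gene Trat1 (-1.10 ± 0.20). Ptpn11, which codes for the phosphatase SHP-2 that PD-1 recruits, differed by 0.43 ± 0.20. Of 16 regulator genes 7 were higher and 0 lower, among them Tbx21 (5.60-fold), Irf4 (3.37-fold), Prdm1 (2.71-fold) and Tox (2.38-fold). These named genes code for transcription factors tied to receptor expression in stimulated T cells. Maf was not called, at 0.15 by its brightest probe, though its other measured probe gave 2.88.

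Between the transduced libraries, the ligand list gave 3 higher and 1 lower of 10 in the one labelled si-Eos, beside 12.3% higher and 10.3% lower over all genes, with Pdcd1lg2 at 20.6-fold and Cd274, for PD-L1, at 2.34-fold higher. The list of other receptors gave 8 higher and 3 lower of 16. Cd200 was 21.1-fold higher, Klrg1 at least 14.1-fold, Crtam 6.54-fold and Lair1 4.15-fold. Slamf6 was 7.44-fold lower, Cd226, the activating counterpart of CD96, 6.04-fold lower, and Vsir, for the inhibitory receptor VISTA, 2.72-fold lower. Inhibitory receptors were thus found on both sides.

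Signalling genes gave 2 higher and 6 lower of 23 in that comparison, with the same 12.3% and 10.3% over all genes. In 1 of the 6, Cblb (-1.58), the other probe went the opposite way (0.72). Sh2d1a, for the SLAM-family adaptor SAP, was 8.04-fold lower and Grap2, for an adaptor that joins CD28 signals, 6.31-fold lower. Ptpn6, for the phosphatase SHP-1, was 2.46-fold higher by its brightest probe, and its other 2 probes gave 0.22 and 0.27 on the log2 scale. Regulators gave 6 higher and 1 lower of 16. Eomes and Tbx21, for T-box factors, were higher by 3.26 and 3.19, Prdm1 by 2.45 and Irf4 by 2.14 on the log2 scale. The lower gene was Rc3h1, whose probes disagreed in direction. Stat3, among the higher genes, gave 1.54 by its brightest probe and 0.34 by the other. Maf was not called, at -0.19 by its brightest probe, though its 2 other measured probes gave 2.74 and 3.43.

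Set against fresh Treg, the library labelled si-RL had 1 of 10 ligand genes higher and 4 lower, with 8.39% higher and 9.95% lower over all genes: Cd80 was higher (2.79 on the log2 scale), while Pdcd1lg2 was lower (-2.70) and Cd86, not well above background there, was at least 22.2-fold lower. Of the 16 other receptors, 0 were higher and 7 lower, with Klrg1 at least 39.1-fold, Cd200 10.6-fold and Cd96 6.09-fold lower. None of the 23 signalling genes reached 2-fold, and the 16 regulators gave 3 higher and 3 lower, with Tox (-1.67) and Eomes (-1.53) among the lower ones. With spike-in scaling the 65 genes gave 1 higher and 28 lower in place of 4 and 14. With the mean of all probes they gave 1 higher and 17 lower.

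The library labelled si-Eos had 2 of 10 ligand genes higher than fresh Treg and 3 lower, and 2 of 16 other receptors higher and 4 lower. Of 23 signalling genes 0 were higher and 7 lower, and of 16 regulators 6 were higher and 0 lower. Among those 6, Stat3 and Bach2 had another probe under 2-fold, at 0.38 and 0.64 on the log2 scale. Of the 7 lower signalling genes, Cblb stood at -1.79 by its brightest probe and at 0.07 by the other. Over all genes, 9.74% were higher and 10.7% lower. Cd80 was higher and Cd86 lower, with log2 differences of 2.47 and -3.01, and both had the same direction in the si-RL-labelled library. Slamf6 (-4.21) and Cd226 (-3.57) were lower. Tbx21 was higher by 3.19 and Irf4 by 2.19, on top of their step from naive T cells to Treg. Klrg1, which had the direction of Pdcd1 in the other 3 comparisons, was here lower than in Treg (-1.47).

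**Figure D4:**
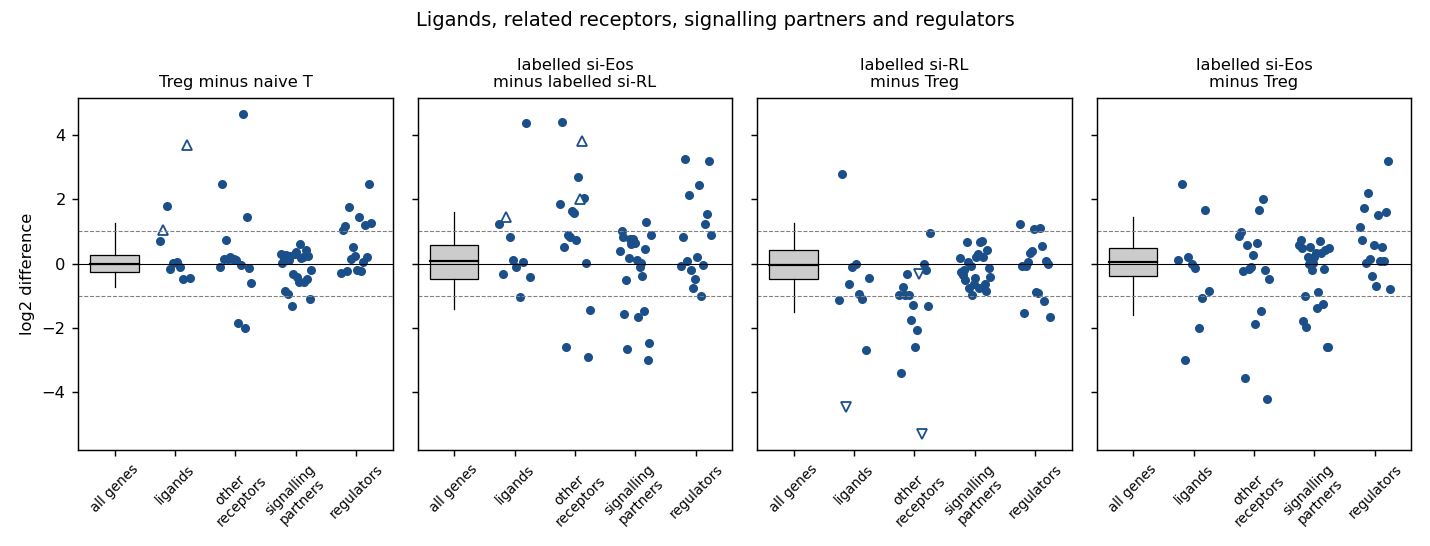
log2 differences of the pathway genes in each list beside all genes tested, in the 4 comparisons; boxes are the quartiles of all genes, whiskers the 5th and 95th percentiles, points single genes and open triangles bounds. By the brightest probes, the regulator list has 7 of 16 genes above 2-fold for Treg against naive T cells, beside 6.69% of all genes. By the same probes, the signalling list has 0 of 23 past 2-fold for the si-RL-labelled library against Treg, beside 18.3% of all genes.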

How the data were processed

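RNA from 4 mouse T cell samples, 1 array per group, was measured on 1-colour Agilent arrays. The deposited scanner files hold linear spot intensity from Feature Extraction software, version 9.5.3.1; per the file headers it was background-subtracted and not normalized between arrays. Probe positions refer to mouse build mm8, per the file headers, and 1 slide, read in 1 scan, held the 4 arrays. Whether a probe lies in an exon, intron or UTR was not analysed here, since no annotation of mm8 was used. The authors' deposited value table holds the same intensity values: column medians were 33.2, 50.5, 38.5 and 31.5 in naive T, Treg, si-Eos and si-RL, and 100% of spots were within 0.5% of the scanner value.

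From the files, log2 of the processed intensity minus each array's 75th percentile over 41174 non-control probes was computed (Python 3.11.15, numpy 2.4.6, pandas 2.3.3). Spots marked non-uniform or as population outliers (71 to 94 of 43379) were left out, and spots of 1 probe were averaged. Symbols came from a RefSeq table of GRCm38.p6 through the accession for 24375 probes, the symbol for 6301 and a single synonym for 2426; 8072 kept the name in the file. The brightest probe, by its mean over the 4 arrays, stood for a gene. The precision is limited by the number of arrays, and all 4 groups have 1. The alternatives were median, spike-in (8 probes), quantile and detected-probe scaling, normexp with an offset of 50 (R 4.3.3, limma 3.58.1), the deposited value table, the mean of all probes, the dimmest probe above background, no filter, kept outlier spots, and 1.5-fold and 3-fold thresholds. The counting was tried on simulated data with planted differences and scanner error only, for genes well above background on both arrays. That trial does not cover spread between replicates or the differences given as "at least".

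All 8 receptors are described. Of the 4 pathway lists (72 entries), genes are named mainly by the size of their difference among those at least 2-fold apart, with the ligands of the receptors added. The 3 nearest profiles of each receptor above background on all 4 arrays are named. The receptors and the lists were chosen with earlier results of these data known. Tigit, Cd101 and Cd200r4 were not matched and are not analysed here. The values of 1 gene of the signalling list are not reported here.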

Additional observations from a re-analysis of the deposited data

Results flagged for a closer look

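For 3 receptors the transduced libraries lay on opposite sides of fresh Treg. The share of all genes that did so was not counted, so this count has no background beside it. Pdcd1 differed from Treg by 1.65 on the log2 scale in the si-Eos-labelled library and by -3.46 in the si-RL-labelled library. Lag3 differed from Treg by 2.98 in the si-Eos-labelled library and by at least 22.8-fold in the other direction in the si-RL-labelled library, where it was not well above background. Havcr2 differed by 4.71 in the si-Eos-labelled library and was at least 3.77-fold lower in the si-RL-labelled library. With 1 array per group the difference between these differences was not tested, and both share the Treg array. No group had the 4 samples that a search for outlying arrays needs.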

How the results depend on the processing

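No receptor called apart was called the opposite way under any alternative tried. Values that were not called could change sign or pass 2-fold. Cd28 ran from -3.57 to 0.67 for si-Eos against Treg and from -1.27 to 0.78 between the transduced libraries. Icos ran from -0.12 to 0.89 for si-RL against Treg. The counts of receptors called apart ranged from 5 to 6 for Treg against naive T cells, 5 to 8 for the library labelled si-Eos against that labelled si-RL, 4 to 6 for si-RL against Treg and 3 to 5 for si-Eos against Treg. Counts over many genes moved more, and in the same order of comparisons were as follows. With a 3-fold threshold all genes gave 885, 1698, 1446 and 1826, and the pathway genes 8, 18 and 9 in the first 3. With a 1.5-fold threshold all genes gave 3854, 8707, 7499 and 7873, and the pathway genes 36 for si-RL against Treg. Normexp gave 3414, 2080, 7075 and 8165 for all genes. Without the filter on dim probes all genes gave 3127 for Treg against naive T cells and 5386 for si-RL against Treg, and spike-in scaling gave 29 pathway genes for the latter. The other 125 counts stayed within 1.5 times of those reported. Of single receptor values, 255 moved by less than the error and 63 by more. The thresholds and the filter change these counts by construction, and the cause of the others was not tested. Under normexp, Lag3 between Treg and naive T cells went from 4.07 to 1.65, and Havcr2 from at least 2.15 to 1.13. Between the transduced libraries, Lag3 fell from the at least 181-fold given above to 4.78 on the log2 scale. Havcr2 fell there from at least 98.9-fold to 3.9 on the log2 scale, and Cd160 to 0.23, below 2-fold. Levels under about 0.03 of the 75th percentile were not separable from background. No paired analysis was possible because each group holds 1 array, and leaving out a replicate was not possible for the same reason.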
